A study of Homo sapiens with 15 samples.

Results

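The subject is the AP-1 gene family in steroid-treated breast cancer cells, namely JUN, JUNB, JUND, FOS, FOSB, FOSL1, FOSL2 and ATF3. Members were chosen by name, as the probe sets whose platform gene symbol is 1 of these 8 genes, so 8 of the 14361 named genes and 10 of the 14841 named probe sets were members. These genes, and the other gene lists below, were picked with earlier results of these data known, so counts of calls among them are descriptive. FOS and FOSB have 2 probe sets each and the other 6 genes have 1 each. The cells were ZR-75-1, a human luminal breast cancer line that expresses the estrogen receptor, and received 10 nM MPA, PROG, DHT or DEX for 6 h. The controls are labelled as given vehicle (0.1% ethanol) and, in another field, as untreated. In which solvent the 4 compounds were dissolved was not stated in the labels. Each of the 5 groups has 3 arrays, hybridised with amplified, biotin-labelled total RNA. All cultures were in regular growth medium with fetal bovine serum, so the vehicle cells were serum-exposed too. MPA is the usual abbreviation of medroxyprogesterone acetate, a synthetic progestin, PROG of progesterone, DHT of dihydrotestosterone, an androgen, and DEX of dexamethasone, a synthetic glucocorticoid. The labels do not spell these names out. Nor do they say whether the 3 arrays of a group stem from independently grown cells. The p-values therefore reflect the scatter of these arrays alone, and that scatter may be technical.

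AP-1 is a transcription factor built as a dimer of basic leucine zipper proteins. A JUN family protein pairs with a FOS family or ATF family protein, or with another JUN, and the dimer binds short palindromes known as AP-1 (TPA response) or cyclic AMP response elements. Several of its genes are immediate early genes, switched on within minutes of a growth factor or stress signal and silent again soon after, while JUND, FOSL1 and FOSL2 have slower or steadier kinetics. Liganded steroid receptors act through their own DNA elements and are also known to bind to or interfere with AP-1 at target genes.

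Promoter sequences are shown for the members whose RNA rose, and for those with a match to the sites that AP-1 and related dimers bind. RefSeq windows on GRCh38.p14 were used, running from 250 bases before the annotated start to 50 bases from the start on, and 7 of the 8 genes had one (8 windows, since ATF3 has 2). FOSL1 was not matched. The letters TGANTCA (AP-1 site) and TGACNTCA (cyclic AMP response or JUN-type site) were searched on both strands; the 2 patterns differ in length by 1 base and a match to one is not a match to the other. JUN, JUND and ATF3 held the second pattern and FOSL2 the first, as did 7.72% and 7.71% of all 35116 windows. The 30 bases around each match follow, with the match in capitals and each sequence read 5′ to 3′ on the gene's strand.
JUN, chr1:58784096-58784125, minus strand: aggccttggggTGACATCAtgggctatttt
JUND, chr19:18281804-18281833, minus strand: ggccgcccccaTGACGTCAacccacaaggc
ATF3, chr1:212565273-212565302, plus strand: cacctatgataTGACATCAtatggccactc
FOSL2, chr2:28392851-28392880, plus strand: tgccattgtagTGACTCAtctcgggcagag

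The octamer of JUN lies at bases -67 to -60, counted from the base before the start as -1, and that of ATF3, the same 8 letters, at -123 to -116. In JUND the octamer TGACGTCA lies at -200 to -193, and in FOSL2 the 7 letters lie just inside the transcript, at bases 5 to 11. The longer upstream stretches of the 3 genes that rose are shown so that they can be read against each other, with TGACNTCA matches and the TATA box TATAAA (gene strand only) in capitals.
JUN, chr1:58784048-58784297, minus strand: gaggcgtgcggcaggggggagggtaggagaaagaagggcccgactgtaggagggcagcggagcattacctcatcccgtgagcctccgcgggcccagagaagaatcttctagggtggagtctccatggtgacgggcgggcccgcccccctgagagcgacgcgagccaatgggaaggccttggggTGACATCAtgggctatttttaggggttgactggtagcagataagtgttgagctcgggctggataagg
JUNB, chr19:12791236-12791485, plus strand: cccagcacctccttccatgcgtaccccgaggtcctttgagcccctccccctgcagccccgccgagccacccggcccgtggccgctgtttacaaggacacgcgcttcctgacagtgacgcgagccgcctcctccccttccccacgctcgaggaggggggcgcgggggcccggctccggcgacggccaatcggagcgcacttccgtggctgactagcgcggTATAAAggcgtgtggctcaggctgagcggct
FOSL2, chr2:28392608-28392857, plus strand: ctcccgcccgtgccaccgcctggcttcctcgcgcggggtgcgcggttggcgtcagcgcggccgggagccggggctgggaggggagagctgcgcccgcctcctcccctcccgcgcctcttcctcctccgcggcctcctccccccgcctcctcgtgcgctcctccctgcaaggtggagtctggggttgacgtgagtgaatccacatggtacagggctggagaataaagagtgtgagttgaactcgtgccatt

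JUNB carries TATAAA at -31 to -26, FOS at -33 to -28 and FOSB at -30 to -25, as 7.33% of all windows do at some place. The second window of ATF3 also holds these letters, at -230 to -225. A loose form of the steroid receptor element, the palindrome bound by progesterone, androgen and glucocorticoid receptors, was found in 0.39% of all windows on either strand and in none of the 8 windows of the AP-1 genes. That says only that its letters are not in these windows. The CArG box, bound by serum response factor, was in 1.29% of all windows and in none of these. The windows reach only 250 bases before the start, so sites further upstream were not searched.

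The arrays had deposited medians of 3.69 to 3.73 on the log2 scale, and within a group any pair of arrays had r = 0.9971 to 0.9978 over all probe sets. All 14 measured luminal markers of 16 listed, among them KRT18, EPCAM and GATA3, stood above the array medians. Their mean log2 level per array was 8.957 to 9.008 in MPA cells, 8.963 to 9.004 in PROG cells, 9.009 to 9.059 in DHT cells, 9.034 to 9.086 in DEX cells and 9.006 to 9.055 in vehicle cells. Of the 3 measured fibroblast and 3 measured blood or endothelial markers, 1 each stood above the medians and none was called with any compound. Of the luminal list, KRT19 and AGR2 rose and ESR1, PGR and FOXA1 fell with MPA, the first 4 of these 5 moved the same way with PROG, KRT19 rose and ESR1 fell with DHT, and KRT19 rose with DEX. VIM, KRT5 and KRT14 lay near or under the medians. The basal marker EGFR, the growth factor receptor gene, rose with MPA (log2 7.76 against 6.99 in vehicle cells) and PROG (log2 7.55 against the same 6.99). The part of these genes in the AP-1 values was not tested.

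JUN, JUNB and FOSL2 rose with both progestins, and the other 5 genes did not pass the test with any compound. A difference is the mean log2 level of the first group less that of the second, ± its standard error from a limma fit to all 15 arrays (n = 3 per group). Called means a Benjamini-Hochberg adjusted p under 0.05 over all named probe sets. With MPA 3 of the 10 probe sets were called higher and 0 lower, beside 4.11% of all named probe sets called higher and 1.82% lower. PROG gave the same 3 higher and 0 lower, beside 2.43% and 0.391%. DEX gave 2 higher, FOSL2 and JUNB, and 0 lower, beside 0.957% and 0.148%. DHT gave 0 by limma, beside 0.889% called in either direction, and 3 of the 10 had an unadjusted p under 0.05, beside 9.9% of all named probe sets. In limma's moderated F test over the 4 compounds against vehicle 3 of 10 were called, beside 5.13% of all named probe sets. The median difference of the 10 probe sets was 0.22 with MPA, 0.19 with PROG, 0.062 with DHT and 0.003 with DEX, beside medians over all named probe sets of -0.003, 0, -0.003 and 0.01. The 4 comparisons share the vehicle arrays. Each array measures RNA of a whole culture, so a change in the share of responding cells and a change per cell cannot be told apart.

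**Figure D1:**
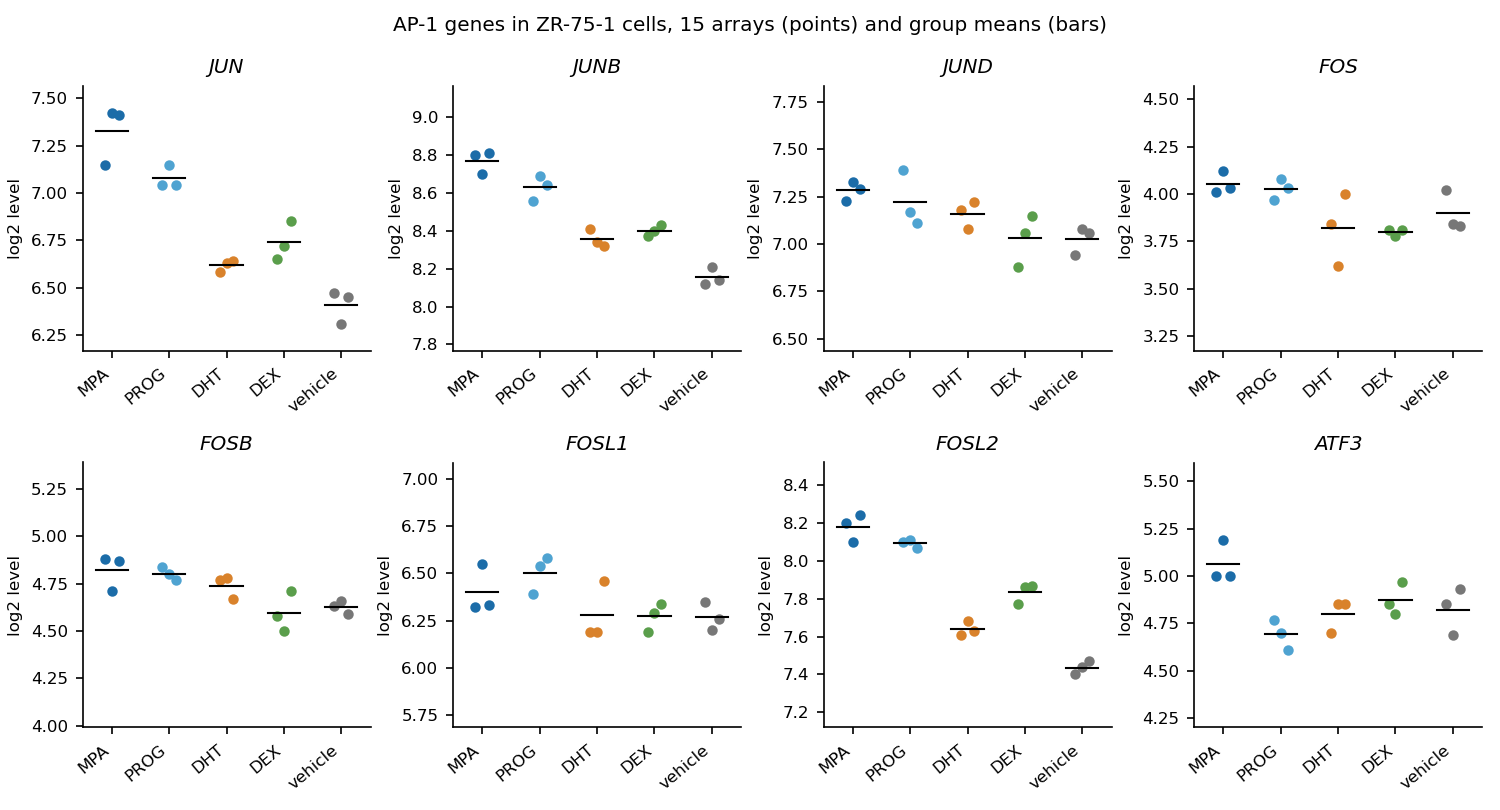
Log2 level (vertical axis, a span of equal height in each panel) of the 8 AP-1 genes on the 15 arrays, by group; points are arrays and bars are means of 3, and FOS and FOSB are shown by their brighter probe set. For JUN, JUNB and FOSL2 the MPA and PROG arrays all lie above the DHT, DEX and vehicle arrays, while FOS, FOSB, FOSL1 and JUND overlap across most groups. For ATF3 the MPA arrays lie above all other arrays.

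JUN encodes c-Jun, the member that most readily forms active dimers. Its log2 level was 7.15, 7.42 and 7.41 in MPA cells, 7.04, 7.15 and 7.04 in PROG cells, 6.58, 6.63 and 6.64 in DHT cells, 6.65, 6.72 and 6.85 in DEX cells, and 6.47, 6.31 and 6.45 in vehicle cells. Every treated array lay above every vehicle array, and the progestin arrays lay above all others. MPA raised JUN 1.89-fold (0.92 ± 0.074, limma adjusted p = 1.39e-06) and PROG 1.59-fold (0.67 ± 0.074, limma adjusted p = 6.49e-05). The MPA difference ranks 54 from the top among the 14841 probe sets and the PROG difference 64. With DEX the difference was 0.33 ± 0.074 (limma adjusted p = 0.0504), just outside the threshold, and with DHT 0.21 ± 0.074 (limma adjusted p = 0.326). Alternatives moved the DEX value to either side, from 0.0276 with a trended, robust variance prior to 0.212 with 1 array left out.

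JUNB encodes a JUN protein with weaker activation in many settings, often set against c-Jun. Its levels were 8.80, 8.70 and 8.81 in MPA cells, 8.56, 8.69 and 8.64 in PROG cells, 8.41, 8.34 and 8.32 in DHT cells, 8.37, 8.40 and 8.43 in DEX cells, and 8.12, 8.21 and 8.14 in vehicle cells. All 12 treated arrays again lay above the 3 vehicle arrays, and the lowest MPA array above the highest PROG array. JUNB rose 1.53-fold with MPA (0.61 ± 0.048, limma adjusted p = 9.90e-07), 1.39-fold with PROG (0.47 ± 0.048, limma adjusted p = 2.63e-05) and 1.18-fold with DEX (0.24 ± 0.048, limma adjusted p = 0.0250). The DEX call was lost without any 1 of vehicle 1, vehicle 3, DEX 1, DEX 2 and DEX 3 (limma adjusted p 0.0516 to 0.112), with quantile normalization repeated (0.0587) and with the 2 groups fitted alone (0.120). With DHT the difference of 0.20 ± 0.048 was not called (limma adjusted p = 0.0758), and it was called in 3 of the alternatives.

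FOSL2 encodes FRA-2, a FOS protein without the strong activation domain of c-Fos. Its levels were 8.20, 8.10 and 8.24 in MPA cells, 8.10, 8.11 and 8.07 in PROG cells, 7.61, 7.68 and 7.63 in DHT cells, 7.77, 7.86 and 7.87 in DEX cells, and 7.40, 7.44 and 7.47 in vehicle cells. The MPA and PROG arrays overlap at 8.10 and 8.11, and the DEX, DHT and vehicle arrays form 3 levels that do not overlap. FOSL2 rose 1.67-fold with MPA (0.74 ± 0.046, limma adjusted p = 8.72e-08), 1.58-fold with PROG (0.66 ± 0.046, limma adjusted p = 6.95e-07) and 1.32-fold with DEX (0.40 ± 0.046, limma adjusted p = 3.50e-04). These 3 calls held without each array in turn. The DHT difference of 0.20 ± 0.046 was just outside the threshold (limma adjusted p = 0.0566) and inside it in 3 alternatives, at adjusted p 0.0282 to 0.0346.

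**Figure D2:**
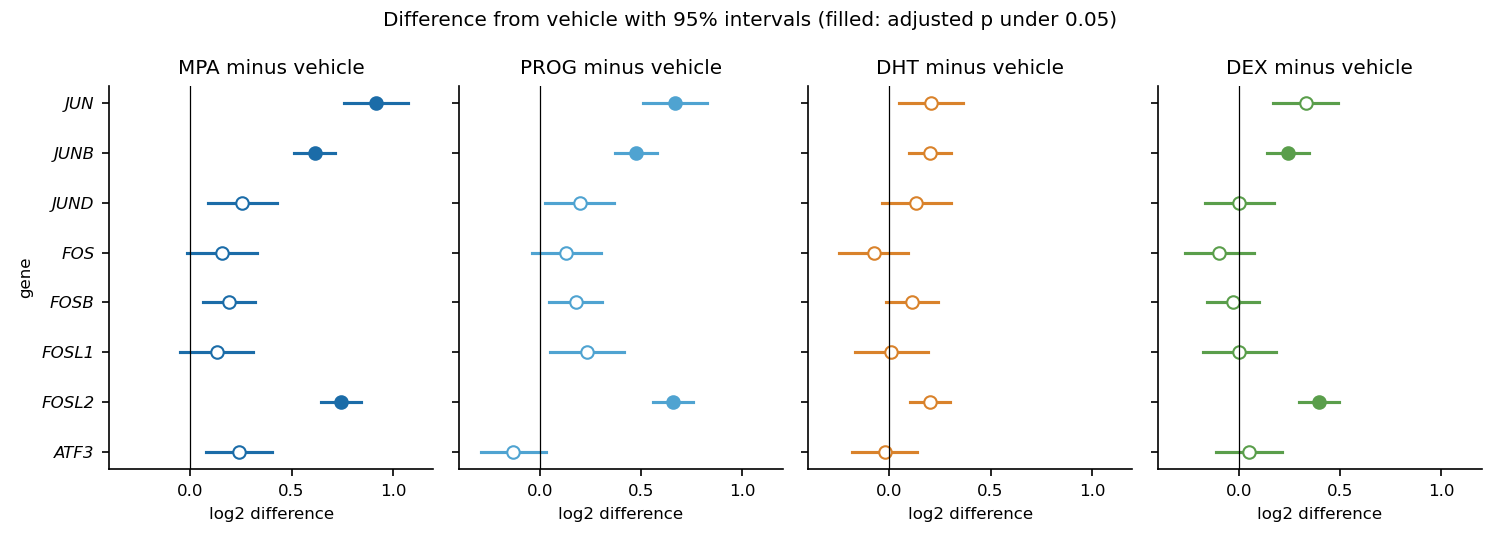
Log2 difference from vehicle (horizontal axis) of each AP-1 gene with each compound; circles are limma estimates, lines 95% intervals, and filled circles have an adjusted p under 0.05. Filled circles are JUN, JUNB and FOSL2 with MPA and PROG, and JUNB and FOSL2 with DEX.

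JUND encodes the JUN protein that most resting cells already hold. It read 7.23, 7.33 and 7.29 in MPA cells, 7.39, 7.17 and 7.11 in PROG cells, 7.18, 7.08 and 7.22 in DHT cells, 6.88, 7.06 and 7.15 in DEX cells, and 6.94, 7.08 and 7.06 in vehicle cells. The MPA and PROG arrays lay above the vehicle arrays, but the differences were 0.26 ± 0.079 with MPA (limma adjusted p = 0.0816) and 0.20 ± 0.079 with PROG (limma adjusted p = 0.312). DHT gave 0.13 ± 0.079 and DEX 0.003 ± 0.079, with a 95% interval of -0.17 to 0.17 for DEX.

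FOS, the founding FOS gene and a classic immediate early gene, was dim on these arrays. Its brighter probe set read 4.01, 4.12 and 4.03 in MPA cells, 3.97, 4.08 and 4.03 in PROG cells, 3.84, 3.62 and 4.0 in DHT cells, 3.81, 3.78 and 3.81 in DEX cells, and 4.02, 3.84 and 3.83 in vehicle cells, close to the array medians of 3.69 to 3.73. The MPA and PROG arrays overlap the highest vehicle array, and the DEX arrays lie below all vehicle arrays. The group means differed from vehicle by 0.16 ± 0.079 with MPA (limma adjusted p = 0.333), 0.13 ± 0.079 with PROG, -0.077 ± 0.079 with DHT and -0.097 ± 0.079 with DEX. The second FOS probe set lay under the array medians on all 15 arrays, with group means of 3.2 to 3.35, and is not read further.

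FOSB, a close relative of FOS, read 4.88, 4.71 and 4.87 in MPA cells, 4.84, 4.80 and 4.77 in PROG cells, 4.77, 4.78 and 4.67 in DHT cells, 4.58, 4.50 and 4.71 in DEX cells, and 4.63, 4.66 and 4.59 in vehicle cells on its brighter probe set. MPA, PROG and DHT arrays all lay above the vehicle arrays, by 0.19 ± 0.060 (limma adjusted p = 0.0830), 0.18 ± 0.060 (0.192) and 0.11 ± 0.060 (0.582). None was called, and the MPA difference was called without MPA 2 (limma adjusted p = 0.0283). The second probe set of FOSB stayed under the medians, with group means of 3.28 to 3.48, and its differences of -0.20 with MPA and -0.037 with PROG had the opposite sign to those of the first.

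FOSL1 encodes FRA-1, a FOS protein linked to invasive, basal-type breast cancer cells. It read 6.32, 6.55 and 6.33 in MPA cells, 6.39, 6.54 and 6.58 in PROG cells, 6.19, 6.19 and 6.46 in DHT cells, 6.19, 6.29 and 6.34 in DEX cells, and 6.35, 6.20 and 6.26 in vehicle cells. Its highest mean was with PROG, 0.23 ± 0.084 above vehicle (limma adjusted p = 0.235), against 0.13 ± 0.084 with MPA. DHT and DEX gave 0.01 and 0.003, with signs that turned in some alternatives.

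ATF3 is a stress-induced ATF family gene whose protein pairs with JUN proteins. It read 5.0, 5.19 and 5.0 in MPA cells, 4.77, 4.70 and 4.61 in PROG cells, 4.70, 4.85 and 4.85 in DHT cells, 4.85, 4.80 and 4.97 in DEX cells, and 4.85, 4.69 and 4.93 in vehicle cells. The MPA arrays lay above all other arrays, while the PROG mean was the lowest of the 5 groups. Against vehicle the differences were 0.24 ± 0.076 with MPA (limma adjusted p = 0.0888) and -0.13 ± 0.076 with PROG (limma adjusted p = 0.574), neither called.

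Counting arrays rather than p-values, 6 of the 10 probe sets had all MPA arrays above all vehicle arrays, beside 10.1% of the named probe sets. Those 6 are JUN, JUNB, JUND, FOSL2, FOSB and ATF3. The same held for 6 with PROG (beside 9%), where FOSL1 stands in place of ATF3, for 4 with DHT (beside 7.05%) and for 3 with DEX (beside 9.06%). In either direction 7 did not overlap with MPA (beside 19.1%), 7 with PROG (beside 15.5%) and 4 with DEX (beside 13.6%). The added ones are the second FOSB probe set with MPA, the second FOS probe set with PROG and FOS with DEX, all lower. For JUN, JUNB and FOSL2 it held with all 4 compounds, and FOSB was the fourth with DHT.

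**Figure D3:**
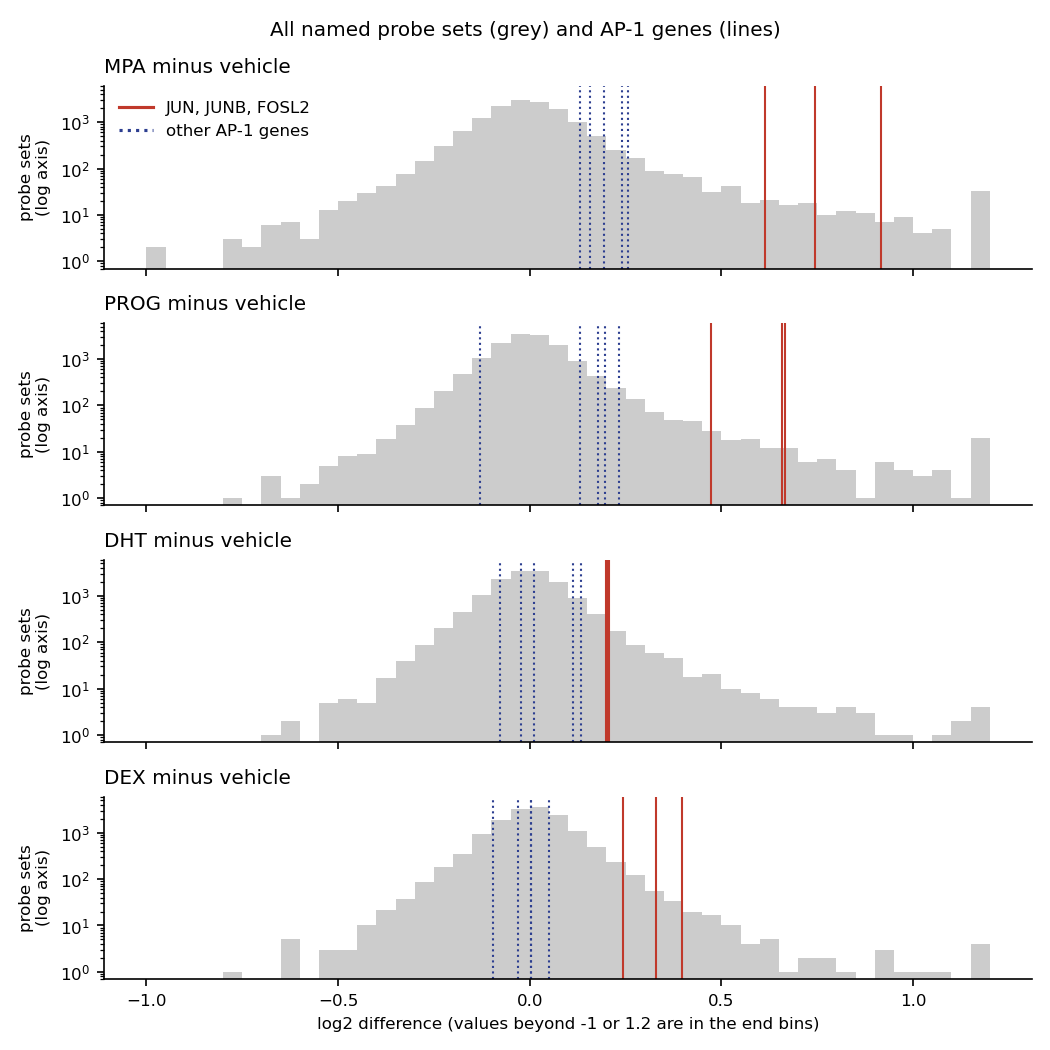
Number of named probe sets (grey, log axis) by log2 difference from vehicle in bins of 0.05, with the AP-1 genes as lines (red for JUN, JUNB and FOSL2, dotted blue for the other 5). The red lines lie at 0.61 to 0.92 with MPA, 0.47 to 0.67 with PROG, 0.20 to 0.21 with DHT and 0.24 to 0.40 with DEX.

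The compounds were compared with each other at 1 dose and 1 time, in 6 pairs. Both progestins stood above DHT and DEX for JUN, JUNB and FOSL2, and no AP-1 probe set differed between MPA and PROG or between DHT and DEX by the same test. MPA against DHT gave 3 of 10 probe sets higher (beside 2.53% of all) and MPA against DEX 3 (beside 2.49%). PROG against DHT also gave 3 (beside 1.36%), as did PROG against DEX (beside 1.03%). MPA against PROG gave 0, beside 0.29% called in either direction, and DHT against DEX 0, beside 0.654%. At an unadjusted limma p under 0.05 the pair MPA and PROG differed for JUN, JUNB and ATF3, 3 of 10 beside 8.52% of all named probe sets. The pair DHT and DEX differed at that level for FOSL2 and FOSB, 2 of 10 beside 9.57%. With p-values adjusted over all 10 contrasts together the counts were 1 for MPA against PROG, ATF3, and 1 for DHT against DEX, FOSL2.

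The difference between MPA and DHT was largest for JUN, at 0.71 ± 0.074 (limma adjusted p = 3.65e-05), then 0.54 ± 0.046 for FOSL2 (4.14e-06) and 0.41 ± 0.048 for JUNB (1.10e-04). Against DEX, MPA stood higher by 0.59 ± 0.074 for JUN (limma adjusted p = 2.29e-04), 0.35 ± 0.046 for FOSL2 (3.37e-04) and 0.37 ± 0.048 for JUNB (2.84e-04). These 6 calls held without each array in turn. FOSB was 0.22 ± 0.060 higher with MPA than with DEX, just outside the threshold (limma adjusted p = 0.0544). It was called with dim probe sets left out (0.0356), quantile normalization repeated (0.0486), without MPA 2 (0.0204) and without DEX 3 (0.0218). FOS for MPA against DHT, 0.23 ± 0.079, was called without DHT 3 (limma adjusted p = 0.0277, against 0.163 with all arrays). PROG stood above DHT by 0.46 ± 0.074 for JUN (limma adjusted p = 0.00361), 0.45 ± 0.046 for FOSL2 (6.51e-05) and 0.27 ± 0.048 for JUNB (0.00697), calls that also held without each array. The PROG and DEX groups were closer, with PROG higher by 0.34 ± 0.074 for JUN (limma adjusted p = 0.0379), 0.26 ± 0.046 for FOSL2 (0.00818) and 0.23 ± 0.048 for JUNB (0.0271). Of these only the FOSL2 call held without each array. That of JUN was lost with array medians subtracted (limma adjusted p = 0.0547), and without any 1 of PROG 1, PROG 2, PROG 3, DEX 1 and DEX 2 (limma adjusted p 0.0818 to 0.170). That of JUNB was lost without any 1 of PROG 2, PROG 3, DEX 1, DEX 2 and DEX 3 (0.0591 to 0.137). When those 2 groups were fitted alone no member was called.

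MPA carries a methyl and an acetoxy group on the progesterone skeleton, and for no AP-1 gene was a difference between the 2 progestins called. The estimates and 95% intervals, MPA minus PROG, were 0.25 (0.091 to 0.41) for JUN, with a limma adjusted p of 0.278, and 0.14 (0.037 to 0.24) for JUNB, with 0.391. For FOSL2 the estimate was 0.087 (-0.012 to 0.19). ATF3 had the widest gap, 0.37 (0.21 to 0.53), or 1.29-fold, with all MPA arrays above all PROG arrays and a limma adjusted p of 0.0651. That gap was called when dim probe sets were left out (adjusted p = 0.0477) or all 10 contrasts were adjusted together (0.0170). FOS (0.027), FOSB (0.017), JUND (0.060) and FOSL1 (-0.10) had intervals that include 0. DHT and DEX differed by -0.12 (-0.28 to 0.036) for JUN and -0.043 (-0.15 to 0.060) for JUNB, DHT minus DEX. FOSL2 was lower with DHT by an estimate of -0.19 (-0.29 to -0.095), with a limma adjusted p of 0.0862.

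**Figure D4:**
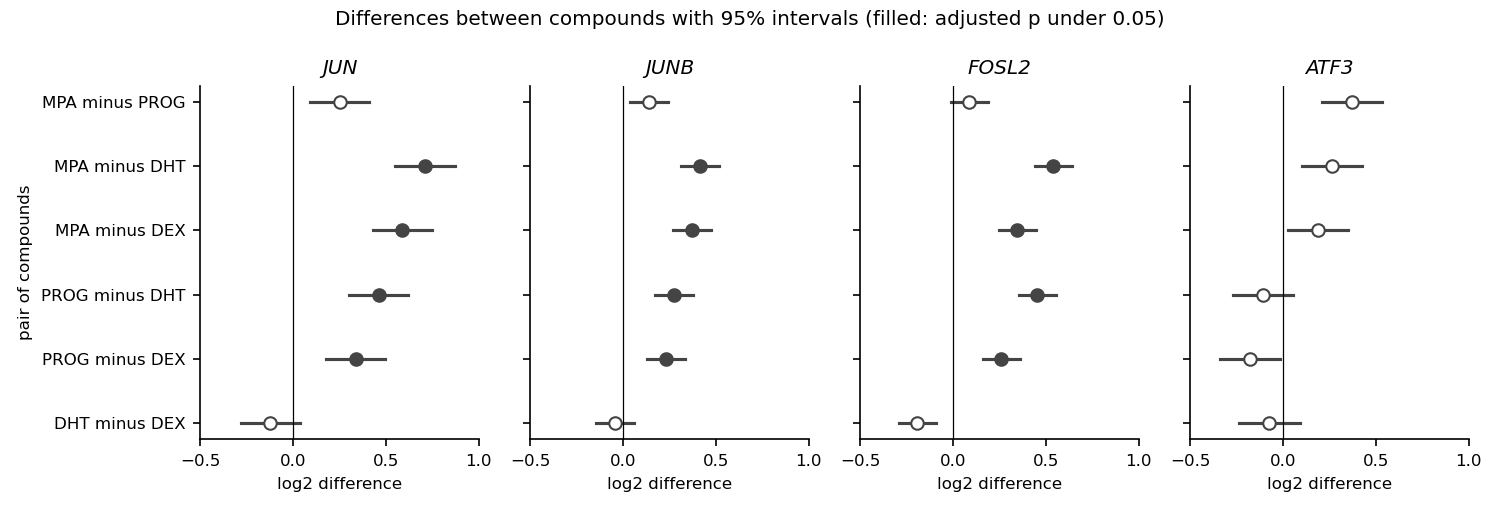
Log2 difference (horizontal axis, first compound minus second) for the 6 pairs of compounds in JUN, JUNB, FOSL2 and ATF3; circles are limma estimates, lines 95% intervals, filled circles adjusted p under 0.05. The 4 pairs of a progestin with DHT or DEX are filled for JUN, JUNB and FOSL2, and none is filled for ATF3.

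Ordered by group mean, JUN, JUNB and FOSL2 all ran MPA, PROG, DEX, DHT, vehicle from high to low. Among neighbours in that order, PROG over DEX was called for all 3 genes, and MPA over PROG and DEX over DHT for none. DHT over vehicle was not called either. Of the PROG over DEX calls only that of FOSL2 held without each array, and none held with those 2 groups fitted alone. A step that was not called is not shown to be absent. The order of FOSB and JUND was MPA, PROG, DHT and then vehicle and DEX, with DEX above vehicle by 0.003 for JUND and below it by 0.03 for FOSB.

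Over the 15 arrays the 3 genes ran closely together, with Pearson's r of 0.966 for FOSL2 and JUNB, 0.947 for FOSL2 and JUN and 0.943 for JUN and JUNB. Arrays of 1 group share their treatment, so this is a description of the groups. After subtracting group means the same pairs had r = 0.448, 0.115 and -0.143. FOS and FOSL1 had r = 0.797 over the arrays and 0.737 within groups. Over the 15 arrays the highest r of ATF3 was 0.432, with JUN, and within groups that pair had 0.604. ATF3 and JUNB had r = 0.252 over the arrays and -0.655 within groups.

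The genes most like each of the 3 over the 15 arrays were found among all other named protein-coding genes. FOSL2 was most like SYBU, a kinesin adaptor (r = 0.981), EMP1, an epithelial membrane protein (0.978), and AKAP13, an anchoring protein for protein kinase A (0.975). These differed from vehicle by 1.43, 1.91 and 1.27 with MPA and by 0.32, 0.36 and 0.38 with DHT. JUN was most like GLUL, glutamine synthetase (r = 0.974), MRFAP1 (0.972) and TMEM164 (0.972). JUNB was most like TMEM63C (r = 0.978), ZNF703, a zinc finger gene amplified in luminal breast cancer (0.973), and S100P, a calcium-binding protein (0.973).

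Calls of the other genes of the pathway are counted after adjustment over all named probe sets. Each listed gene is read by its probe set of highest mean. Over all named probe sets the shares called higher were 4.11% with MPA, 2.43% with PROG, 0.775% with DHT and 0.957% with DEX. Of 37 other basic leucine zipper genes listed that can pair or compete with AP-1, 22 were measured. Of these, 2 were called higher with MPA and 0 lower, 1 with PROG, and 0 with DHT or DEX. They were CREB3L2, a membrane-bound CREB relative (0.22 ± 0.045 with MPA, limma adjusted p = 0.00646), and ATF6, a stress sensor of the endoplasmic reticulum, whose calls with MPA (0.13 ± 0.035) and PROG (0.15 ± 0.035) were lost without any 1 array. The list's median difference was 0.008 with MPA and 0.013 with PROG, beside -0.003 and 0 over all named probe sets. Of 41 upstream kinases and serum response regulators listed, 23 were measured. With MPA 3 of these were called higher and 1 lower, beside 4.11% and 1.82% of all named probe sets. The count of 4 was 1 without vehicle 1 or MPA 1 and 2 without vehicle 2 or vehicle 3. MAPK7, the kinase ERK5, kept its MPA call without each array (0.26 ± 0.048, limma adjusted p = 0.00304). MAP2K6, a kinase of the p38 pathway, fell by 0.54 on the log2 scale with MPA (limma adjusted p = 0.0187), a call lost without vehicle 1, vehicle 3 or MPA 1. MAP3K3 (0.17 ± 0.045) and SRF, which encodes serum response factor (0.18 ± 0.049), were the other 2 and lost their calls without any 1 of 5 of the 6 arrays. PROG gave 1 higher, MAPK7 (0.22 ± 0.048, limma adjusted p = 0.0234), lost without any 1 array, and DHT and DEX gave 0.

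Of 36 textbook AP-1 target genes listed, 18 were measured. Of these, 4 were called higher with MPA, 2 with PROG, 0 with DHT and 1 with DEX, and 0 were lower. Over all named probe sets the shares called higher were 4.11%, 2.43%, 0.775% and 0.957% in that order. The list's median difference was 0.062 with MPA and 0.063 with PROG, 0.03 with DHT and 0.017 with DEX, beside -0.003, 0, -0.003 and 0.01 over all. Of the list, 9 of 18 lay above the array medians. MT2A, a metallothionein that also has a glucocorticoid response element, rose with MPA (0.70 ± 0.046), PROG (0.55 ± 0.046) and DEX (0.30 ± 0.046), calls that held without each array. EZR, the membrane linker ezrin, rose with MPA (0.30 ± 0.047) and PROG (0.24 ± 0.047, lost without PROG 2, limma adjusted p = 0.0549). HBEGF, an EGF receptor ligand, rose with MPA (log2 4.56 against 4.04 in vehicle cells), from a level near the array medians. CCND1, cyclin D1, also rose with MPA (0.21 ± 0.054, lost without vehicle 1, vehicle 2, MPA 1 or MPA 3).

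Of 30 other immediate early genes listed, 21 were measured. Of these, 8 were called higher with MPA, 5 with PROG, 0 with DHT and 4 with DEX, with 0 lower. Over all named probe sets the shares called higher were 4.11%, 2.43%, 0.775% and 0.957% in that order. The list's median difference was 0.15 with MPA, 0.17 with PROG, 0.003 with DHT and 0.083 with DEX. The medians over all named probe sets were -0.003, 0, -0.003 and 0.01. With MPA the calls that held without each array were 5, namely EGR1, a zinc finger factor (0.40 ± 0.054), DUSP1, a MAP kinase phosphatase (0.49 ± 0.060), KLF4 (0.52 ± 0.064), KLF6 (0.53 ± 0.053) and MCL1, a survival factor (0.28 ± 0.042). EGR3 (0.35 ± 0.082, from log2 4.04 in vehicle cells, near the array medians), SGK1 and SRF were the other 3. SRF (0.18 ± 0.049) is also counted among the serum response regulators. It was called in only 1 of 6 fits with an array left out. With PROG they were KLF4 (0.37 ± 0.064), KLF6 (0.42 ± 0.053) and SGK1, while EGR1 (0.23 ± 0.054) and MCL1 (0.20 ± 0.042) lost their calls without some arrays. The count with MPA was 5 without MPA 3. The PROG count was 3 without vehicle 2, PROG 2 or PROG 3. The DEX count was 2 without vehicle 1, DEX 2 or DEX 3 and 1 without vehicle 2, and of its 4 calls only DUSP1 (0.51 ± 0.060) held without each array, and EGR3 (0.47 ± 0.082), MYC (0.23 ± 0.049) and KLF10 (0.24 ± 0.051) did not. SGK1 lies under the array medians (log2 3.27 with MPA and 3.39 with PROG). Its calls are in the counts with MPA and PROG but are not read further.

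Heat shock and stress genes often move with handling of cultures, and 12 of 23 listed were measured. Of these, 2 were called higher with MPA and 1 each with PROG, DHT and DEX, and 0 were lower. Over all named probe sets the shares called higher were 4.11%, 2.43%, 0.775% and 0.957% in that order. The list's median differences were -0.022, 0.003, 0.068 and 0.013 in that order, beside -0.003, 0, -0.003 and 0.01 over all named probe sets. DDIT4, a stress and glucocorticoid-responsive inhibitor of mTOR signalling, was called with MPA (0.89 ± 0.054), PROG (0.53 ± 0.054) and DEX (0.58 ± 0.054), and BAG3, a co-chaperone, with MPA (0.20 ± 0.040) and DHT (0.23 ± 0.040, lost without DHT 2, limma adjusted p = 0.0511). Their part in the AP-1 values was not tested.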

How the data were processed

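Expression of 34878 probe sets was measured on 15 Affymetrix arrays. The deposited table holds log2 values with 2 decimals, made with Partek and RMA per the submitters' processing notes, which as used here state no version, setting, filter or genome build. RMA equalises the arrays' distributions, so these values do not show a shift of most genes at once. The platform annotation names 14841 probe sets with 1 gene each, 0 with several, and 20037 stay unnamed here. Promoters came from RefSeq, GRCh38.p14. No detection calls are used here, so levels near the array medians are treated as dim. The alternative with dim probe sets left out kept those above the array median on at least 3 arrays. The brighter FOS probe set, though near the medians, stayed in it.

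Values were used as deposited. limma 3.58.1 in R 4.3.3 fitted 5 group means (10 residual degrees of freedom, prior 3.81) and tested 10 contrasts (2-sided), each adjusted by Benjamini-Hochberg over the named probe sets. Data of the same 14841 probe sets were simulated with independent normal scatter. Changes for MPA against vehicle were placed only in probe sets above the median mean level. Of these, 87% of 100 changes of 0.4 and 100% of 100 changes of 0.8 were recovered, and 9 unchanged probe sets were called. The simulation gives no recovery rate for dim probe sets such as those of FOS, or for differences under 0.4. The number of arrays, 3 per group, limits the precision.

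Named genes are all 8 members, the 3 genes most correlated with each member called by the F test, and up to 6 called genes of each list per contrast against vehicle. In the immediate early list with MPA, SGK1 and SRF are named beyond those 6. The members and lists were chosen with earlier results of these data known. Alternatives were tested as given at the end. Arrays showed no pairing by replicate number in their correlations over all probe sets, which would not show a pairing limited to few genes. No array was left out.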

Additional observations from a re-analysis of the deposited data

How the results depend on the processing

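JUN, JUNB and FOSL2 kept their calls with MPA and PROG against vehicle, and with MPA against DHT and DEX, in every alternative run. With PROG against DHT JUN and FOSL2 did too, and JUNB had an adjusted p of 0.0733 with the 2 groups fitted alone. In place of 2, the count of AP-1 probe sets with DEX was 1 with a replicate block and 1 with the 2 groups fitted alone. In place of 3, PROG against DEX gave 1 AP-1 probe set with unnamed probe sets included and 0 with the 2 groups alone, and the JUN call there was lost with array medians subtracted (adjusted p 0.0547). DHT against vehicle gave 2 with dim probe sets left out, 2 with a trended, robust prior and 2 with all 10 contrasts adjusted together, in place of 0. MPA against PROG gave 1 with dim probe sets left out and 1 with joint adjustment, and DHT against DEX gave 1 with the trended prior and 1 with joint adjustment. Leaving out 1 array each, the AP-1 counts ranged from 1 to 2 with DEX and from 1 to 2 for PROG against DEX.

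Over all named probe sets, 880 were called with MPA, 419 with PROG, 132 with DHT and 164 with DEX, and 43, 521, 602, 254, 211 and 97 for MPA against PROG, DHT and DEX, PROG against DHT and DEX, and DHT against DEX. With the 2 groups fitted alone, fewer arrays gave 526, 255, 54 and 44 against vehicle and 7, 292, 285, 146, 122 and 39 between compounds. The trended prior gave 222 with DHT, 72 for MPA against PROG and 166 for DHT against DEX, and joint adjustment 206, 114 and 169. Without 1 array the counts ran from 257 (without PROG 2) to 336 with PROG, from 66 (without DHT 2) to 132 with DHT and from 78 (without DEX 3) to 123 with DEX. Over 1.5 times fewer were also called without vehicle 2 or DHT 1 for DHT (79 each), and without vehicle 1, vehicle 2, vehicle 3 or DEX 2 for DEX (87, 104, 99 and 95). Between compounds they ran from 17 (without PROG 1) to 38 for MPA against PROG, from 168 (without PROG 2 or DHT 1) to 256 for PROG against DHT and from 62 (without DHT 1) to 135 for DHT against DEX. The first was also 19 without PROG 3 and 22 without MPA 3, and the last 64 without DHT 2.

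Uncalled differences near 0 turned sign. FOSL1 was -0.0046 with DHT and -0.027 with DEX, and JUND -0.024 with DEX, after repeated quantile normalization, and FOSL1 was -2.7e-04 with DHT under array weights. Without 1 array the ranges with DHT were -0.17 to 0.023 for FOS, -0.095 to 0.063 for the second FOSB probe set, -0.080 to 0.055 for FOSL1 and -0.090 to 0.030 for ATF3. With DEX they were -0.11 to 0.0050 for the second FOS probe set, -0.087 to 0.018 for FOSB, -0.032 to 0.045 for FOSL1, -0.057 to 0.078 for JUND and -0.017 to 0.10 for ATF3, and with PROG -0.077 to 0.043 for the second FOSB probe set. These causes were not tested.

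Over all probe sets, arrays of the same replicate number did not deviate together: 0 of 30 pairs had r over 0.1 (range -0.072 to 0.068). Pairs with other numbers ranged from -0.082 to 0.098, and 4 of 15 arrays correlated best with their own number. With the replicate block the DEX call of JUNB had an adjusted p of 0.0517 and that of JUNB for PROG against DEX 0.0574. Signal near the array medians limits FOS and the second probe sets of FOS and FOSB.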
